A study of Mus musculus with 16 samples.

Results

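The genes described here are 50 cell cycle and mitosis genes, listed by symbol, among the 24421 gene symbols counted in MDSCs, immature myeloid cells that expand in tumor-bearing hosts and suppress T cells. They were sorted into 8 roles, namely 4 cyclin-dependent kinases (CDKs), 6 genes of the G1 phase (5 cyclins and E2f1), 3 cyclins of later phases, 9 DNA replication genes, 4 nucleotide synthesis genes, 8 genes of mitotic kinases, the spindle checkpoint and mitotic proteolysis, 12 genes of chromosomes, spindle and cytokinesis, and 4 CDK inhibitors. The rule that selects them uses their symbols and no measured value, but the members and the gene lists were chosen with earlier results of these data known. Their shares set against all genes are therefore descriptive. All 50 symbols were found in the count files.

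RNA came from the spleens of 8 mice, 4 wild type (WT, C57BL/6J) and 4 Nlrp3-/- (on a C57BL/6 background). Each was implanted subcutaneously with 300000 cells of the B16.F10 mouse melanoma line, which itself has a functional Nlrp3 gene. NLRP3 is the sensor of an inflammasome that matures IL-1β. In Nlrp3-/- mice an EGFP cassette disrupts the gene in all cells of the body, so that differences may arise outside the sorted cells. By the authors' account the C57BL/6J mice were purchased and the Nlrp3-/- line came from another laboratory. They also report reduced growth of B16.F10 tumors in Nlrp3-/- mice, and tumor sizes are not given for these 8 mice. Genotype therefore cannot be told apart from mouse source or tumor size. Monocytic MDSCs (M-MDSCs, CD11b-high Ly6C+ Ly6G-) and granulocytic MDSCs (G-MDSCs, CD11b-high Ly6C- Ly6G+) were sorted, which gave 4 groups of 4 libraries with 1 mouse per library. The M-MDSC and G-MDSC libraries of the same genotype and replicate number carry the same spleen number in the labels, and are taken to come from the same mouse. By default animals were 6 to 12 weeks old, matched for sex and age, and were analysed on day 15 of tumor growth. Neither value is stated for these 8 mice in particular, and the 15 or 17 amplification cycles are not assigned to libraries.

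A dividing cell copies its DNA in S phase under CDKs that are switched on by cyclins, and the D cyclins open the way by releasing E2F transcription factors from the retinoblastoma protein. In G2 and mitosis another set of genes is switched on, whose products condense chromosomes, build the spindle, attach kinetochores and split the cell. Monocytic cells and early granulocytic precursors divide, whereas neutrophils leave the cell cycle as they mature, and CDK inhibitors rise in many cells that stop dividing.

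Libraries held 2295967 to 6079866 counts of reads from transcript 3′ ends, and 3 counts corresponded to 0.493 to 1.31 CPM (the count relative to the library size, scaled by TMM over all 16 libraries). The members took 0.223% to 0.384% of the counts of a library. Counts of the disrupted gene fell with the genotype, from 219-632 (WT) to 4-11 (Nlrp3-/-) per M-MDSC library and from 744-1365 to 21-59 per G-MDSC library. The genes that define M-MDSCs summed to 6519 to 10230 CPM in M-MDSCs and 869 to 1545 CPM in G-MDSCs, those of G-MDSCs to 114300 to 174400 CPM in G-MDSCs and 1434 to 8561 CPM in M-MDSCs, so the subset labels matched their markers. The highest of these last values, 8561 CPM, belonged to WT M-MDSC replicate 2. That library stood apart in cell cycle genes as well. Its mean log2 CPM over the 49 members that passed a filter on low counts in the 16 libraries was 5.15, against 3.76, 3.89 and 3.80 in the other WT M-MDSC libraries, and results that rest on it are given with and without it.

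**Figure D1:**
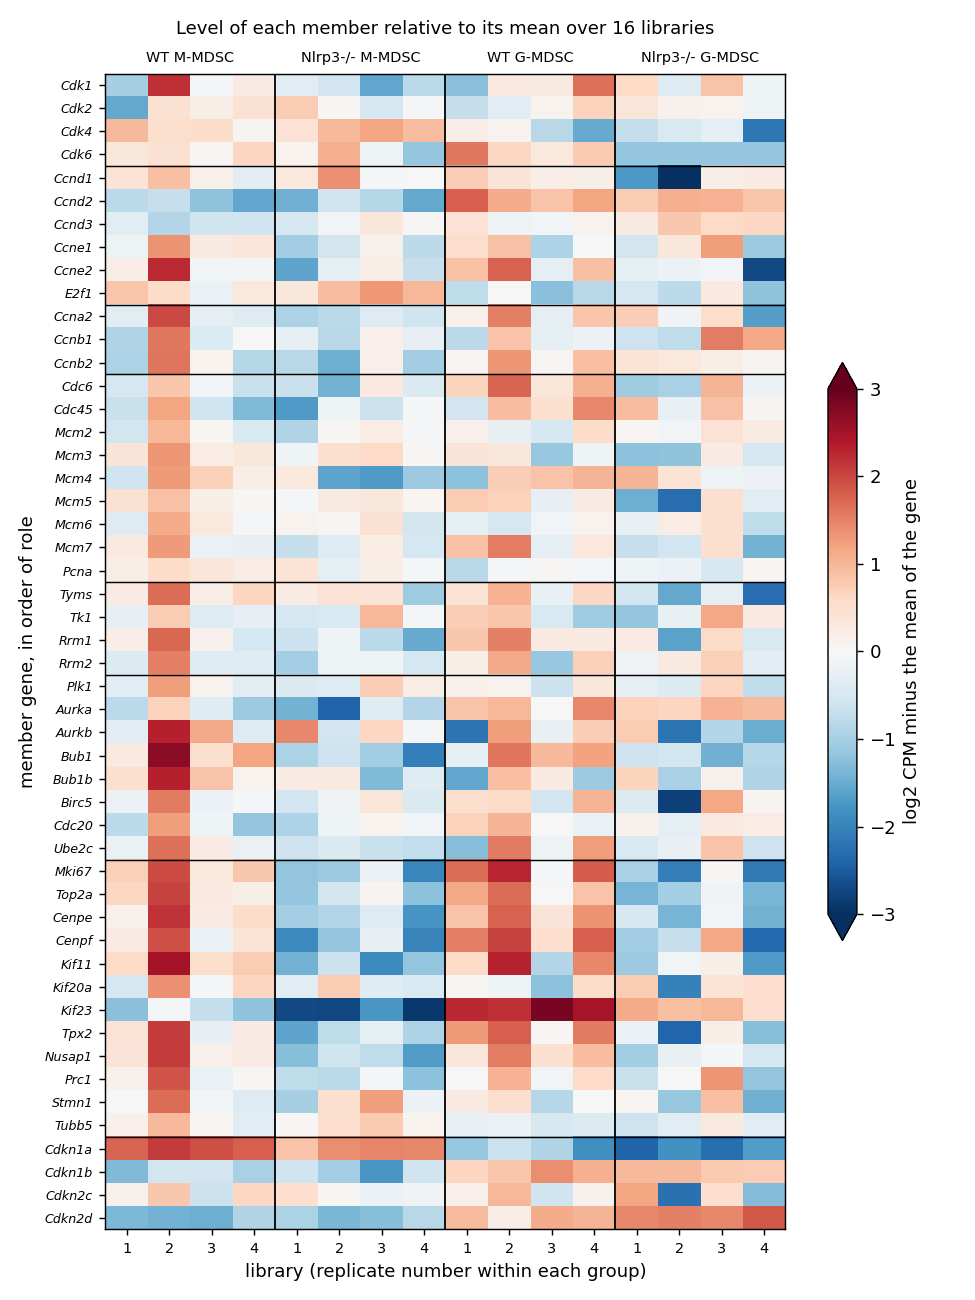
Level of each of the 50 members (rows, ordered by role, with lines between roles) in each of the 16 libraries (columns, grouped by genotype and subset), as log2 CPM minus the mean of the gene, red above and blue below it. WT M-MDSC replicate 2 is red for most members, and Kif23, Cdkn1a, Cdkn1b and Cdkn2d separate the subsets more clearly than the genotypes.

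In M-MDSCs, 8 members were lower in Nlrp3-/- than in WT mice and 0 were higher. All 8 belong to the 12 genes of chromosomes, spindle and cytokinesis: Mki67, Top2a, Cenpe, Cenpf, Kif11, Kif23, Tpx2 and Nusap1. Their log2 fold changes ran from -1.63 to -2.90. Of the 50 members 48 had enough counts to be tested, Cdk6 and Bub1 being left out, and 8 of 48 compare with 7.10% of all tested genes called lower and 3.51% called higher in this comparison. A call needed an FDR (Benjamini-Hochberg) under 0.05 in edgeR's quasi-likelihood test and a fold change above 1.5. DESeq2 called 16 members lower and 0 higher. Its share over all genes is not given here, and the shares above are those of edgeR. Of the members tested by edgeR 20 had an unadjusted p under 0.05. The same held for 15.1% of all tested genes on the higher and 15.0% on the lower side. Since these are bulk samples, fewer dividing cells and less RNA of these genes per cell cannot be told apart.

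Mki67 encodes Ki-67, the chromosome surfactant used as a marker of dividing cells. In WT M-MDSCs it had 64.9, 153, 48.9 and 68.5 CPM, and in Nlrp3-/- M-MDSCs 17.0, 18.3, 34.5 and 9.76 CPM (replicates 1 to 4). Every WT library lay above every Nlrp3-/- library, and the log2 fold change was -2.08 ± 0.41 (SE; edgeR's quasi-likelihood test, adjusted p = 0.00889). Top2a, the topoisomerase that untangles sister chromatids, had 82.9, 222, 66.4 and 60.7 CPM in WT and 23.6, 36.5, 56.8 and 22.6 CPM in Nlrp3-/- M-MDSCs. The groups came close, the lowest WT library being only slightly above the highest Nlrp3-/- library, at a log2 fold change of -1.63 ± 0.42 (SE; edgeR's quasi-likelihood test, adjusted p = 0.0297).

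Cenpe is the kinesin that carries chromosomes to the spindle equator, and Cenpf is a kinetochore protein that accumulates in G2. Cenpe had 18.4, 76.9, 20.2 and 24.7 CPM in WT against 8.03, 9.04, 12.7 and 4.63 CPM in Nlrp3-/- M-MDSCs. Cenpf had 17.5, 57.4, 13.02 and 19.5 CPM in WT against 3.61, 6.31, 12.3 and 3.34 CPM. Neither gene overlapped between the genotypes, with log2 fold changes of -2.03 ± 0.47 and -2.11 ± 0.52 (SE; edgeR's quasi-likelihood test, adjusted p = 0.0197 and 0.0254). In both, WT replicate 2 was well above the other WT libraries and Nlrp3-/- replicate 3 was the highest of its group.

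Kif11 is the motor that pushes the spindle poles apart and Kif23 the motor of the central spindle on which cytokinesis depends. Kif11 had 5.39, 21.4, 5.17 and 6.17 CPM in WT M-MDSCs. In Nlrp3-/- M-MDSCs it had 1.05, 2.05, 0.627 and 1.28 CPM, the replicate 3 value being at 3 counts. Its log2 fold change, -2.90 ± 0.56, was the furthest from 0 among the tested members (SE; edgeR's quasi-likelihood test, adjusted p = 0.00859), and the groups did not overlap. Kif23 had 22.9, 53.7, 33.2 and 23.3 CPM in WT and 8.03, 7.85, 16.1 and 7.07 CPM in Nlrp3-/- M-MDSCs. Its genotypes were also separate, at -1.78 ± 0.34 (SE; edgeR's quasi-likelihood test, adjusted p = 0.00832).

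Tpx2 activates Aurora A and nucleates spindle microtubules, and Nusap1 bundles microtubules around chromosomes. Tpx2 had 12.8, 42.1, 7.85 and 11.3 CPM in WT against 2.91, 5.46, 7.73 and 4.75 CPM in Nlrp3-/- M-MDSCs, with WT replicate 3 and Nlrp3-/- replicate 3 almost level. Nusap1 had 16.7, 55.8, 14.3 and 15.4 CPM in WT against 5.00, 8.36, 7.31 and 3.73 CPM. The log2 fold changes were -1.85 ± 0.50 and -2.08 ± 0.46 (SE; edgeR's quasi-likelihood test, adjusted p = 0.0361 and 0.0163), and neither gene overlapped between the groups. Of the other 4 genes of this role, Prc1, the microtubule bundler of the midzone, had a log2 fold change of -1.45 and an adjusted p of 0.0658, while the kinesin Kif20a, the microtubule destabilizer Stmn1 and the tubulin Tubb5 ran from -0.61 to 0.11.

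**Figure D2:**
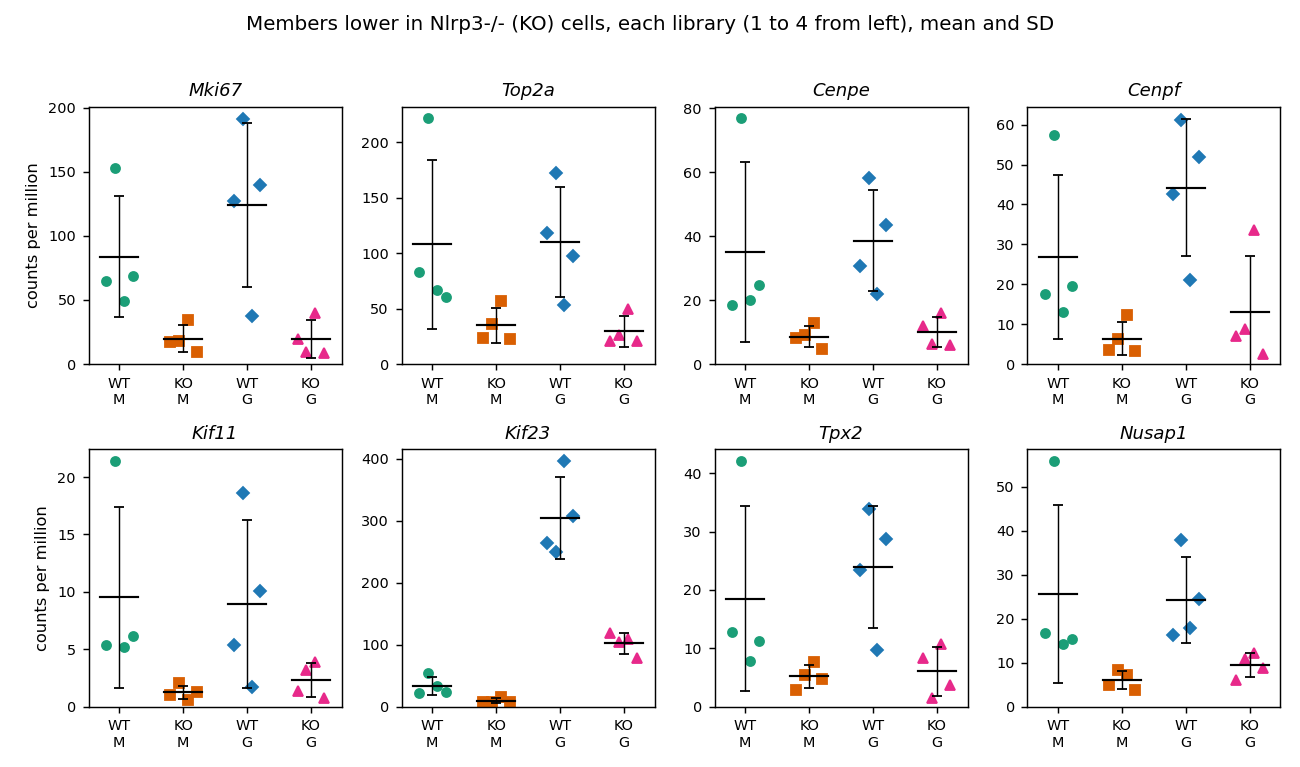
CPM of the 8 spindle and chromosome members lower in Nlrp3-/- M-MDSCs, in each library of the 4 groups (M and G are the subsets, KO is Nlrp3-/-), with replicates 1 to 4 from left to right, the mean as a line and the SD as a bar (n = 4). Within M-MDSCs every WT point lies above every KO point in all 8 panels, WT replicate 2 is the highest WT M-MDSC point in all 8, and Kif23 is the only panel in which G-MDSCs lie far above M-MDSCs.

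The members of the other 7 roles gave 0 calls in M-MDSCs by edgeR's quasi-likelihood test, although most were on the lower side in Nlrp3-/- mice. Over all 48 tested members the log2 fold change was negative for 40, and its median was -0.66 against 0.07 for all 9986 tested genes. All 9 replication genes were negative, with medians of -0.37 for this role, -1.12 for the later cyclins, -0.80 for nucleotide synthesis and -0.67 for the mitotic kinases and checkpoint, against -1.81 for chromosomes and spindle. The medians of the CDKs, the G1 genes and the CDK inhibitors were nearer to 0, at 0.11, 0.09 and -0.13. The later cyclin Ccna2, which drives S phase with Cdk2, and Ube2c, a ubiquitin carrier of the anaphase-promoting complex, did not overlap between the genotypes, yet their adjusted p were 0.108 and 0.0600 by edgeR's quasi-likelihood test. With Cdkn1a and the 8 called genes they made 11 of 48 members with all Nlrp3-/- libraries below all WT libraries, against 11.7% of all tested genes, and 0 members lay fully the other way against 7.59%.

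The median over the members rested on WT M-MDSC replicate 2. Without it the members' median was -0.06, and 5 members stayed lower. These were Mki67, Cenpe, Kif11, Kif23 and Nusap1, while Top2a, Cenpf and Tpx2 were no longer called. Without Nlrp3-/- M-MDSC replicate 4, which had the lowest Mki67, Cenpf and Nusap1 of its group, 3 members stayed lower (Mki67, Kif11 and Kif23). The median and the share called over all genes are not given for these fits. Their counts and the median of -0.06 are therefore not set against a background. WT replicate 2 also had the highest sums of mature neutrophil genes in WT M-MDSCs, at 7012 CPM against 1412 to 1737, of primary granule genes of immature neutrophils, at 311 CPM against 77.9 to 120, and of erythroid genes, at 306 CPM against 41.2 to 105. It was also the highest for secondary granule genes (3885 CPM against 1385 to 1921), progenitor genes (56.25 against 14.9 to 30.9) and B and plasma cell genes (669 against 345 to 506). The same held for dendritic cell genes (139.5 against 74.9 to 86.2 CPM). For T and NK cell, macrophage, melanoma and M-MDSC genes it was not the highest. The part of these cells in the cell cycle result was not tested.

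In G-MDSCs, 8 members were lower in Nlrp3-/- mice and 1 was higher, of 46 tested. Of the 8 lower members 7 were those already lower in M-MDSCs, Mki67, Top2a, Cenpe, Cenpf, Kif23, Tpx2 and Nusap1, from the same mice, and the other was the CDK inhibitor Cdkn1a. The higher one was the CDK inhibitor Cdkn2d. Among all tested genes 11.7% were called lower and 4.70% higher, so the share of members lower, 8 of 46, stood closer to its background than in M-MDSCs. Cdk6, Tyms, Aurkb and Bub1 had too few counts for the test, and Cdk6, a D cyclin partner, had 0 counts in all 4 Nlrp3-/- G-MDSC libraries against 3 to 7 counts in WT.

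Mki67 had 127, 192, 37.6 and 140 CPM in WT and 19.9, 9.13, 40.2 and 8.66 CPM in Nlrp3-/- G-MDSCs. The groups overlapped, because WT replicate 3 lay below Nlrp3-/- replicate 3, at a log2 fold change of -2.74 ± 0.51 (SE; edgeR's quasi-likelihood test, adjusted p = 0.00230). Top2a had 118, 172, 53.1 and 97.7 CPM in WT against 20.3, 26.4, 49.9 and 20.7 CPM, with no overlap and a log2 fold change of -1.99 ± 0.36 (SE; edgeR's quasi-likelihood test, adjusted p = 0.00187). Cenpe had 30.7, 58.2, 22.1 and 43.6 CPM in WT against 12.0, 6.17, 15.95 and 6.03 CPM, again with no overlap, at -2.02 ± 0.37 (SE; edgeR's quasi-likelihood test, adjusted p = 0.00228). In each of these 3 genes WT replicate 3 was the lowest WT library and Nlrp3-/- replicate 3 the highest of its group.

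Cenpf had 42.7, 61.3, 21.1 and 51.8 CPM in WT against 6.93, 8.89, 33.6 and 2.62 CPM in Nlrp3-/- G-MDSCs. Tpx2 had 23.4, 33.8, 9.69 and 28.8 CPM in WT against 8.32, 1.48, 10.8 and 3.67 CPM. Both overlapped through the same pair of libraries, WT replicate 3 and Nlrp3-/- replicate 3, with log2 fold changes of -1.82 ± 0.56 and -2.04 ± 0.50 (SE; edgeR's quasi-likelihood test, adjusted p = 0.0361 and 0.0130). Cenpf was the least stable of the calls, since it was lost in 6 of 8 fits that left out 1 library and with DESeq2. Nusap1 had 16.4, 37.9, 17.9 and 24.5 CPM in WT against 6.01, 10.9, 12.2 and 8.92 CPM, without overlap, at -1.43 ± 0.34 (SE; edgeR's quasi-likelihood test, adjusted p = 0.00984). Kif11 had 5.34, 18.6, 1.70 and 10.1 CPM in WT against 1.39, 3.21, 3.94 and 0.787 CPM, and its log2 fold change of -1.99 ± 0.68 missed the threshold (edgeR's quasi-likelihood test, adjusted p = 0.0575).

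Kif23 behaved unlike the other spindle genes in G-MDSCs. The gene had 264, 250, 396 and 308 CPM in WT and 118, 104, 110 and 78.2 CPM in Nlrp3-/- G-MDSCs, so the groups were far apart and the libraries within each were close. Its log2 fold change was -1.66 ± 0.19 (SE; edgeR's quasi-likelihood test, adjusted p = 7.39e-05), the smallest p of any member between the genotypes. WT replicate 3, the lowest WT library for Mki67, Top2a, Cenpe, Cenpf, Kif11 and Tpx2, was the highest for Kif23. The call for Kif23 in G-MDSCs was kept in all 12 alternative analyses and in all 8 fits without 1 library.

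The CDK inhibitors moved in opposite directions. Cdkn1a encodes p21, a p53 target that blocks CDKs, and had 51.4, 72.8, 61.6 and 31.9 CPM in WT against 21.3, 32.1, 23.6 and 35.4 CPM in Nlrp3-/- G-MDSCs, overlapping through WT replicate 4. Its log2 fold change was -1.05 ± 0.26 (SE; edgeR's quasi-likelihood test, adjusted p = 0.0142). In M-MDSCs it had 386, 496, 436 and 395 CPM in WT against 207, 301, 320 and 312 CPM, with no overlap, and its log2 fold change of -0.57 ± 0.17 passed the FDR (edgeR's quasi-likelihood test, adjusted p = 0.0467) but not the fold minimum of 1.5. Cdkn2d encodes p19-INK4d, an inhibitor of Cdk4 and Cdk6. It had 449, 265, 501 and 467 CPM in WT against 636, 662, 629 and 843 CPM in Nlrp3-/- G-MDSCs, every Nlrp3-/- library being the higher, at 0.63 ± 0.19 (SE; edgeR's quasi-likelihood test, adjusted p = 0.0352). That call is a weak one, since 5 of 8 fits without 1 library lost it. In M-MDSCs Cdkn2d had a log2 fold change of 0.21 and Cdkn1b, which encodes p27, had -0.07 in M-MDSCs and -0.22 in G-MDSCs, none of which passed the test.

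Of the 6 roles other than these and the spindle genes in G-MDSCs, 0 members were called by edgeR's quasi-likelihood test, with medians of -0.32 for replication, -0.33 for nucleotide synthesis, -0.33 for the mitotic kinases and checkpoint, -0.34 for the CDKs, -0.25 for the G1 genes and -0.53 for the later cyclins, against -1.74 for chromosomes and spindle. The median over the 46 members was -0.39 against 0.03 for all 9273 tested genes, and 37 were negative. The helicase subunit Mcm7 came nearest, at -1.23 with an adjusted p of 0.0532. The other subunits of the helicase that unwinds DNA for replication, Mcm2 to Mcm6, ran from -1.06 (Mcm5) to 0.10 (Mcm6). All Nlrp3-/- libraries lay below all WT libraries for 4 members (Top2a, Cenpe, Kif23 and Nusap1), against 12.3% of all tested genes, and above them for 1 (Cdkn2d), against 12.0%.

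**Figure D3:**
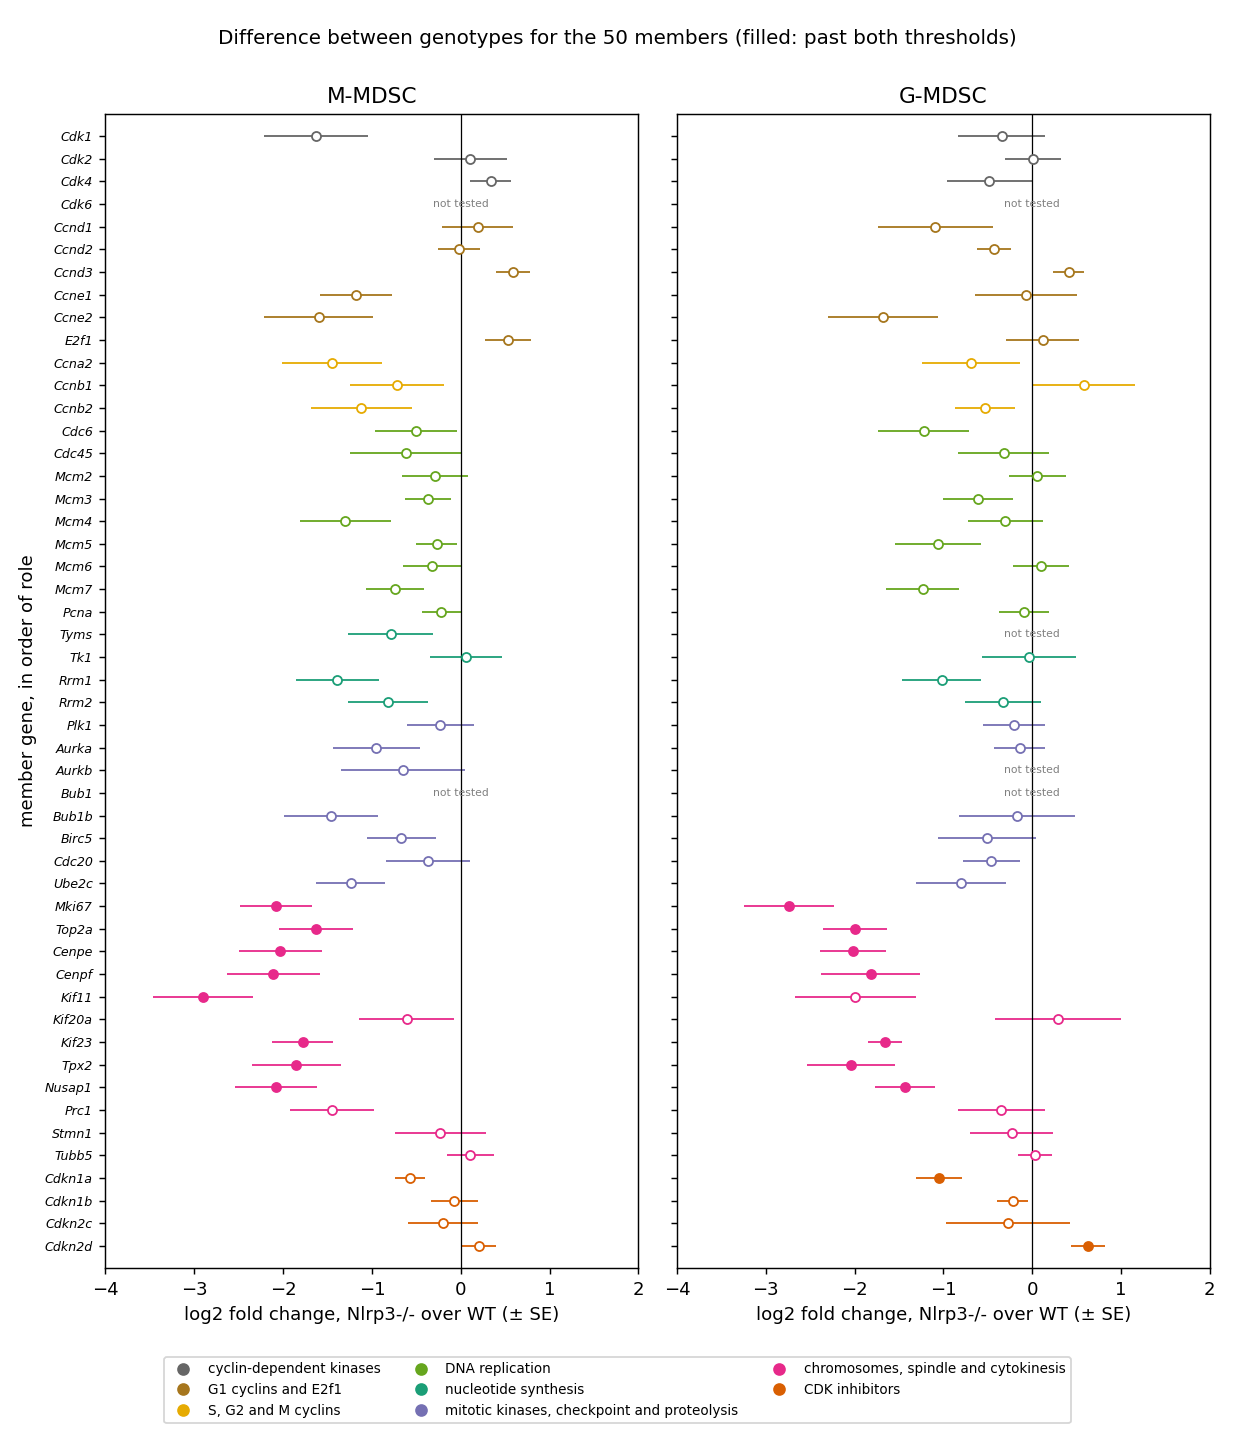
Log2 fold change of Nlrp3-/- over WT (horizontal axis, bars are SE) for the 50 members in order of role (vertical axis) in M-MDSCs (left) and G-MDSCs (right), with filled points for members past both thresholds. The filled points are 8 genes of chromosomes, spindle and cytokinesis in M-MDSCs and 7 in G-MDSCs, joined there by Cdkn1a below 0 and Cdkn2d above it.

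Markers of another dividing lineage were highest in the same libraries as the mean of the cell cycle genes. Erythroblasts divide in the spleen, and the 15 erythroid genes summed to 91.8, 306, 41.2 and 105 CPM in WT and 42.8, 45.6, 167 and 45.7 CPM in Nlrp3-/- M-MDSCs. In G-MDSCs they summed to 320, 697, 74.6 and 410 CPM in WT and 101, 80.5, 392 and 104 CPM in Nlrp3-/- mice. In all 4 groups the library with the highest erythroid sum, replicate 2 in WT and replicate 3 in Nlrp3-/- mice, also had the highest mean over the members. The same library was highest in all 4 groups for Mki67, Top2a, Cenpe, Cenpf and Tpx2, in 3 for Nusap1 and Kif11, and in 2 for Kif23. Below the highest library the erythroid sum and the mean over the members had the same order only in WT G-MDSCs. In WT M-MDSCs, replicate 3 had the lowest erythroid sum. Its mean over the members was 3.89 log2 CPM, above 3.76 and 3.80 in replicates 1 and 4. Same-numbered libraries of a genotype are taken to come from the same mouse, so the groups of a genotype are not independent here. The agreement thus rests on WT replicate 2 and Nlrp3-/- replicate 3, each seen in both subsets.

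Among the erythroid genes 5 globin genes, the most abundant transcripts of the lineage, were listed at 0 in every library. The leading detected gene was Slc4a1, the anion exchanger of red cells, whose M-MDSC range was 4.64 to 81.3 CPM (WT) and 8.70 to 64.3 CPM (Nlrp3-/-) and whose G-MDSC range was 6.30 to 261 CPM (WT) and 8.89 to 123 CPM (Nlrp3-/-). Of the 9 erythroid genes tested, 1 (Car2) was called lower in Nlrp3-/- M-MDSCs and 0 in G-MDSCs by edgeR's quasi-likelihood test, with median log2 fold changes of -1.19 and -1.52. With the library of the highest erythroid sum left out of each group, 7 members were called lower in M-MDSCs, all of the previous 8 but Tpx2. In G-MDSCs 8 were called lower, where Mcm7 joined and Cdkn1a was lost. The members' medians were then -0.23 and -0.52, and no share over all genes is given for this run. The libraries left out also had the highest mean over the members in their groups. This run therefore cannot tell the erythroid level from the cell cycle level. Macrophage genes went the other way, with 5 of 8 higher in Nlrp3-/- mice in each subset. They summed to 151 to 161 CPM in WT against 249 to 383 CPM in Nlrp3-/- M-MDSCs, and to 456 to 755 against 956 to 1215 CPM in G-MDSCs. The highest of them in G-MDSCs was Slc40a1, at 299 to 501 CPM in WT and 525 to 683 CPM in Nlrp3-/- mice. In M-MDSCs Slc40a1 had 3.08 to 7.67 CPM in WT and 7.94 to 27.8 CPM in Nlrp3-/- mice. The part of erythroid cells and macrophages in the results was not tested.

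**Figure D4:**
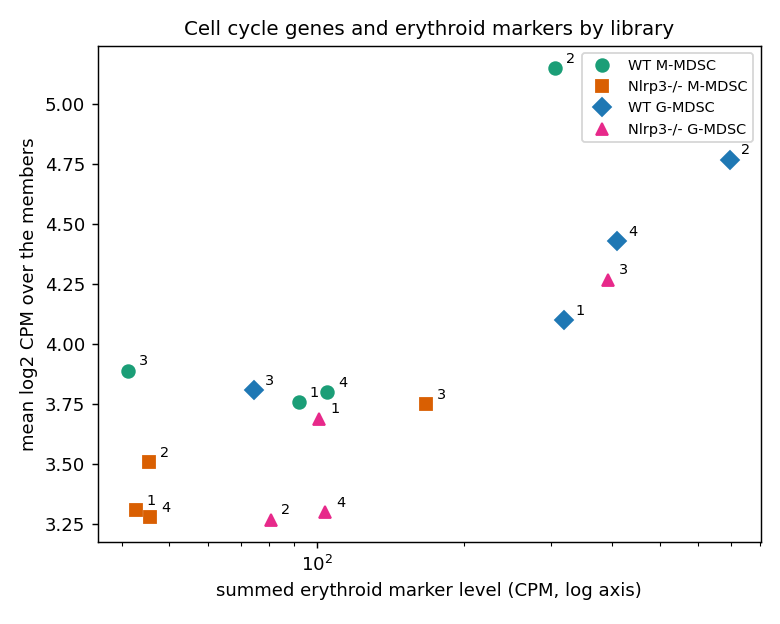
Mean log2 CPM over the 49 members that passed the filter (vertical axis) against the summed level of 15 erythroid marker genes in CPM (horizontal log axis), 1 point per library, numbered by replicate. Replicate 2 of both WT groups and replicate 3 of both Nlrp3-/- groups are the highest of their group on both axes. Points of the same genotype and number are taken to come from the same mouse.

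The lower genes also differ from the other members in base composition and length. For the 9 members lower in either subset the longest annotated transcript had a median GC content of 43.4% and a median length of 4819 bases, against 49.3% and 3006 bases for the other 41 members and 49.4% and 3390 bases for the genes tested in M-MDSCs. With offsets that remove a trend with GC content and length the members' median was -0.64 in M-MDSCs and -0.50 in G-MDSCs, and 6 and 7 members were called lower, while the count over all genes went from 709 to 371 and from 1086 to 555. In M-MDSCs Mki67, Kif11, Kif23 and Nusap1 kept their call, and Cdkn1a and Ube2c joined. Top2a, Cenpe, Cenpf and Tpx2 lost theirs there, at log2 fold changes of -1.24, -1.55, -1.54 and -1.67 (edgeR's quasi-likelihood test, adjusted p = 0.0879, 0.0547, 0.0797 and 0.0617). In G-MDSCs Mki67, Top2a, Cenpe, Kif23, Tpx2 and Cdkn1a kept it, and Mcm7 joined. Lost there were Cenpf at -1.15, Nusap1 at -1.06 and the higher gene Cdkn2d at 0.28 (edgeR's quasi-likelihood test, adjusted p = 0.177, 0.0501 and 0.342).

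Genes of G2 and mitosis often carry in their promoters the cell cycle genes homology region (CHR, TTTGAA), bound by the DREAM and MuvB complexes, together with CCAAT boxes, bound by NF-Y, whereas many S phase genes carry E2F sites (searched as GCGGGA). RefSeq promoter windows of GRCm38.p6, from 250 bases before to 50 bases after a start site, were found for 41 of the 50 members. Letters were searched on both strands, and matches of different motifs shared 2 bases over the windows of all these members. The CHR letters stood in 5 of the 7 lower spindle and chromosome members with a window (71.4%), in 29.4% of the other members and in 20.2% of all 27025 genes. The CCAAT box stood in 85.7%, 73.5% and 41.1% of the same sets, and the E2F letters in 42.9%, 58.8% and 22%. The 5 windows of lower members that hold the CHR letters are shown from 150 bases before to 30 bases after the start, on the strand of the gene, so that the place of the letters can be compared. Capitals mark the letters of these motifs, read on either strand.
Mki67, chr7:135716350-135716529, minus strand: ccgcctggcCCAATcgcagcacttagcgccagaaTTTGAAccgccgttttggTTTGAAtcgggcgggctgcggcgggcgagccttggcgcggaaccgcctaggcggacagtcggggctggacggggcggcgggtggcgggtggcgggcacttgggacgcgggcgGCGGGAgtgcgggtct
Top2a, chr11:99024160-99024339, minus strand: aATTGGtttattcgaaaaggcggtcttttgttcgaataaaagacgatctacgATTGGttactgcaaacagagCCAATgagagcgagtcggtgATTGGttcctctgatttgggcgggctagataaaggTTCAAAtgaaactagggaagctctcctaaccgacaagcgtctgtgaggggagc
Cenpf, chr1:189688057-189688236, minus strand: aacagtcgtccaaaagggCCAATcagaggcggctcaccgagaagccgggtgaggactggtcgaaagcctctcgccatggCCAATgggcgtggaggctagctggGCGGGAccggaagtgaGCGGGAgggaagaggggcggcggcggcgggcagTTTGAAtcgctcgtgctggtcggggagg
Kif11, chr19:37376232-37376411, plus strand: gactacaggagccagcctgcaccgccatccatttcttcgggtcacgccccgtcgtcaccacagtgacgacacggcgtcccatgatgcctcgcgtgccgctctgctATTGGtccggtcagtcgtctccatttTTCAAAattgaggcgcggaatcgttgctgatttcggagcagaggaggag
Kif23, chr9:61946770-61946949, minus strand: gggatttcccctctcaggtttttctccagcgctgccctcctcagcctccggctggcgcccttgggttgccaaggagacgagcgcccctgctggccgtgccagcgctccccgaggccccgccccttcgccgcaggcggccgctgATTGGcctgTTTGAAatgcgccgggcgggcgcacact

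The CHR letters began at position 3 after the start in Cenpf and Kif23, at -19 in Kif11, at -23 in Top2a and at -98 and -116 in Mki67. In Kif23 they followed a CCAAT box on the opposite strand by 4 bases. The window of Cenpe held the CCAAT box but not the CHR letters, that of Nusap1 held none of the motifs, and no window was found for Tpx2. A match of letters is not evidence of binding, and no comparison of the shares was tested.

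The genotype effects of the subsets were compared in a model of all 16 libraries, which took no account of their pairing by mouse. By edgeR's quasi-likelihood test 0 of 49 tested members differed in their effect between M-MDSCs and G-MDSCs, 0 had an unadjusted p under 0.05, and DESeq2 also called 0. Over all 10696 tested genes 0.0187% were called with a higher and 0.00935% with a lower effect in G-MDSCs, and 2.63% and 1.86% had an unadjusted p under 0.05. The smallest p, 0.0691, belonged to Cdkn2d, whose effect was greater in G-MDSCs by 0.54 ± 0.28 (SE) on the log2 scale. For Mki67 the difference was -0.55 ± 0.70, for Kif11 1.02 ± 0.93 and for Kif23 0.24 ± 0.38 (SE). With standard errors of this size, a moderate difference between the subsets could not be detected.

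The subsets were also compared with each other within each genotype. In WT mice 7 of 48 tested members were higher in G-MDSCs (Ccnd2, Ccnd3, Cdc6, Aurka, Kif23, Cdkn1b and Cdkn2d) and 4 were lower (Cdk4, E2f1, Tubb5 and Cdkn1a), whereas 26.3% of all tested genes were higher and 27.1% lower. In Nlrp3-/- mice 6 of 46 were higher (Cdk1, Ccnd2, Aurka, Kif23, Cdkn1b and Cdkn2d) and 5 lower (Cdk4, E2f1, Mcm3, Tubb5 and Cdkn1a), against 23.7% and 27.4% of all tested genes. The share of members called was thus below that of all genes in both directions and both genotypes. Members and all genes were not matched for expression level, which bears on how readily a gene is called. Called in the same direction in both were 9 members: Ccnd2, Aurka, Kif23, Cdkn1b and Cdkn2d higher, and Cdk4, E2f1, Tubb5 and Cdkn1a lower. Each M-MDSC library shares its spleen number with the G-MDSC library of the same genotype and replicate number. When these pairs were fitted as blocks, the counts were 8 and 5 in WT and 7 and 6 in Nlrp3-/- mice. In WT mice Tubb5 then fell short of the fold minimum (-0.55, adjusted p = 0.0134), while Cenpf joined as higher (0.84, 0.00636) and Mcm3 and Bub1b as lower (-0.69 and -1.34, 0.0191 and 0.00830). Cdk1 was lost with the block in Nlrp3-/- mice (0.96, adjusted p = 0.0521), while Ccnb2 and Mcm4 joined as higher (0.96 and 1.2, 0.0466 and 0.00562) and Mcm5 as lower (-1.10, 0.0216).

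The 3 D cyclins, which activate Cdk4 and Cdk6 in G1, differed from each other. Ccnd2 had 68.8, 74.0, 51.9 and 40.4 CPM in WT M-MDSCs and 418, 260, 218 and 270 CPM in WT G-MDSCs, with 43.7, 79.5, 66.4 and 40.7 CPM in Nlrp3-/- M-MDSCs and 203, 252, 249 and 212 CPM in Nlrp3-/- G-MDSCs. All G-MDSC libraries lay far above all M-MDSC libraries, at log2 fold changes of 2.31 ± 0.25 and 1.89 ± 0.21 (SE; edgeR's quasi-likelihood test, adjusted p = 9.48e-06 in WT and 3.30e-06 in Nlrp3-/- mice). Between the genotypes it had -0.02 in M-MDSCs and -0.43 in G-MDSCs, neither past the FDR.

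Ccnd3 had 516, 351, 430 and 429 CPM in WT M-MDSCs and 871, 582, 610 and 699 CPM in WT G-MDSCs, without overlap, a log2 fold change of 0.68 ± 0.18 (SE; edgeR's quasi-likelihood test, adjusted p = 0.00725). This direction depends on the scaling, because it became -0.07 when libraries were scaled by their totals alone, which moved the median of all genes from -0.05 to -0.79. In Nlrp3-/- mice Ccnd3 had 459, 611, 824 and 666 CPM in M-MDSCs and 776, 1131, 984 and 1002 CPM in G-MDSCs, which overlapped, and the log2 fold change of 0.49 stayed under the fold minimum. Between the genotypes it was on the higher side in Nlrp3-/- mice, at 0.59 in M-MDSCs and 0.41 in G-MDSCs, with adjusted p of 0.0604 and 0.115 by edgeR's quasi-likelihood test. Ccnd1 was scarce, at 3.77 to 9.28 CPM in WT M-MDSCs, 4.60 to 13.1 CPM in Nlrp3-/- M-MDSCs, 5.45 to 8.35 CPM in WT G-MDSCs and 0.247 to 5.77 CPM in Nlrp3-/- G-MDSCs. It was not called in any comparison.

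The CDK inhibitors set the subsets apart in both directions. Cdkn1a was the lower in G-MDSCs by 2.97 ± 0.23 on the log2 scale in WT mice and by 3.46 ± 0.21 in Nlrp3-/- mice (log2 fold changes of -2.97 and -3.46, SE; edgeR's quasi-likelihood test, adjusted p = 7.91e-07 and 1.10e-08), and its values, given above, did not come near each other. Cdkn1b had 101, 172, 170 and 130 CPM in WT M-MDSCs against 395, 452, 666 and 534 CPM in WT G-MDSCs, and 168, 124, 75.8 and 167 CPM in Nlrp3-/- M-MDSCs against 497, 498, 438 and 433 CPM in Nlrp3-/- G-MDSCs. The subsets were separate in both genotypes, at 1.84 ± 0.22 and 1.68 ± 0.23 (SE; edgeR's quasi-likelihood test, adjusted p = 2.26e-05 and 3.31e-05). Cdkn2d had 91.6, 86.9, 83.5 and 124 CPM in WT and 121, 89.4, 95.2 and 130 CPM in Nlrp3-/- M-MDSCs, all below the G-MDSC values given above, at 2.13 ± 0.22 and 2.55 ± 0.19 (SE; edgeR's quasi-likelihood test, adjusted p = 6.94e-06 and 5.73e-08). The lowest G-MDSC value of Cdkn2d, 265 CPM, came from WT replicate 2, the G-MDSC library with the most Mki67 and the highest erythroid sum. Cdkn2c, which encodes p18-INK4c, ranged from 0.494 to 9.24 CPM over the 16 libraries and was not called in any comparison.

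**Figure D5:**
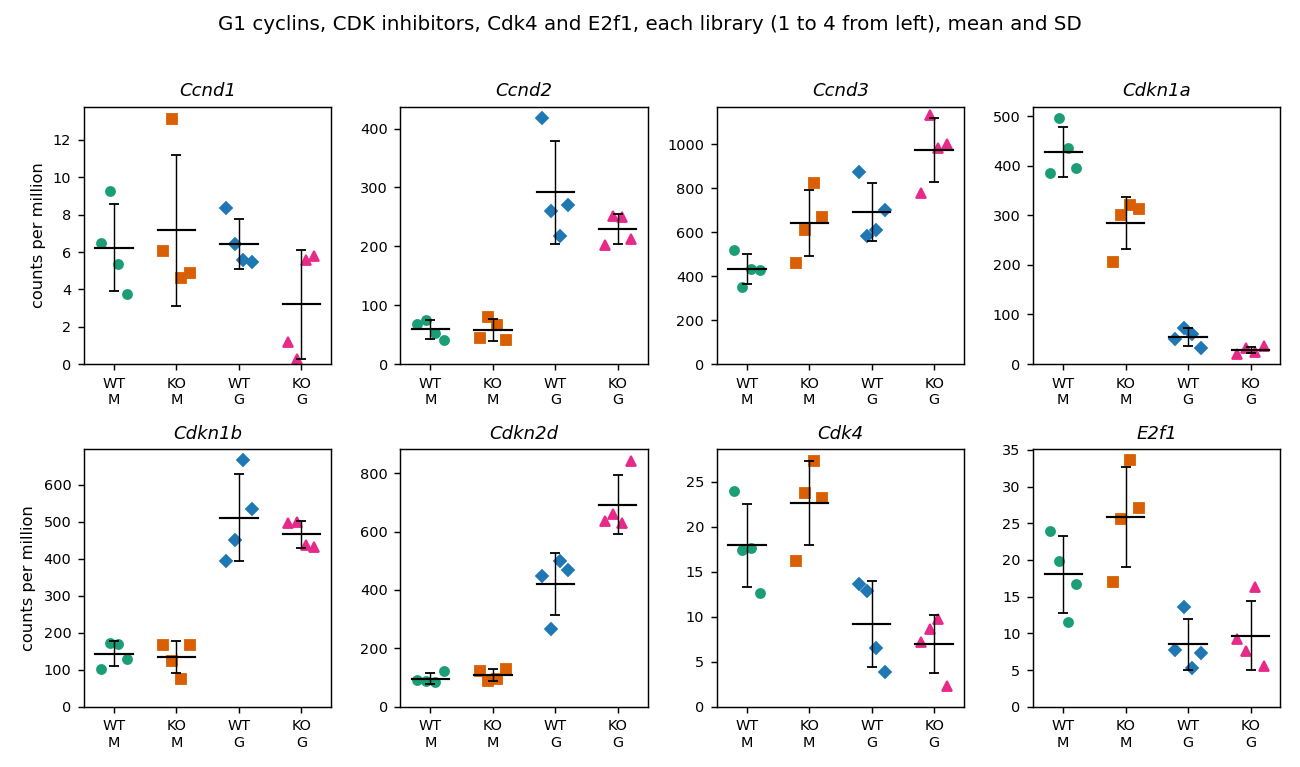
CPM of 3 D cyclins, 3 CDK inhibitors, Cdk4 and E2f1 in each library of the 4 groups (KO is Nlrp3-/-), replicates 1 to 4 from left to right, with the mean as a line and the SD as a bar (n = 4). Ccnd2, Cdkn1b and Cdkn2d are higher in every G-MDSC than in every M-MDSC library and Cdkn1a is lower in every one.

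Cdk4, the kinase of the D cyclins, had 24.0, 17.4, 17.7 and 12.7 CPM in WT M-MDSCs against 13.7, 12.9, 6.54 and 3.89 CPM in WT G-MDSCs, overlapping, at -0.96 ± 0.36 (SE; edgeR's quasi-likelihood test, adjusted p = 0.0388). In Nlrp3-/- mice it had 16.2, 23.7, 27.4 and 23.3 CPM against 7.16, 8.64, 9.74 and 2.36 CPM, now without overlap, at -1.79 ± 0.36 (SE; edgeR's quasi-likelihood test, adjusted p = 0.000878). E2f1, the transcription factor that turns on S phase genes, ranged from 11.6 to 24.0 CPM in WT M-MDSCs and from 5.33 to 13.5 CPM in WT G-MDSCs. Nlrp3-/- mice had 17.0 to 33.6 CPM in M-MDSCs and 5.51 to 16.4 CPM in G-MDSCs. Its log2 fold changes were -1.10 in WT, where the subsets overlapped, and -1.51 in Nlrp3-/- mice, where they did not (edgeR's quasi-likelihood test, adjusted p = 0.0133 and 0.00167). The call for Cdk4 in WT mice was lost with the GC and length offsets and in 4 of 8 fits without 1 library, that of E2f1 in no alternative run.

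Among mitotic genes 2 stood out between the subsets. Kif23 had a log2 fold change of 3.18 ± 0.28 in WT and 3.31 ± 0.27 in Nlrp3-/- mice (SE; edgeR's quasi-likelihood test, adjusted p = 2.17e-06 and 1.58e-07), with all G-MDSC above all M-MDSC libraries. Aurka, the Aurora A kinase of spindle poles, had 5.95, 17.6, 8.21 and 4.797 CPM in WT M-MDSCs against 19.7, 21.7, 10.7 and 29.6 CPM in WT G-MDSCs, overlapping, and 3.72, 1.71, 8.15 and 5.65 CPM in Nlrp3-/- M-MDSCs against 17.6, 17.0, 22.4 and 20.98 CPM in Nlrp3-/- G-MDSCs, which were separate. Its log2 fold changes were 1.11 ± 0.42 and 1.91 ± 0.40 (SE; edgeR's quasi-likelihood test, adjusted p = 0.0381 and 0.00102). By contrast Mki67 had 0.56 in WT and -0.12 in Nlrp3-/- mice, Top2a 0.02 and -0.34, and Cenpe 0.12 and 0.13, none past the FDR. Without WT M-MDSC replicate 2, 12 members were higher in WT G-MDSCs instead of 7, a count given without its share over all genes.

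Tubb5, a tubulin of dividing and other cells, had 210, 370, 196 and 152 CPM in WT M-MDSCs against 160, 165, 136 and 141 CPM in WT G-MDSCs, and 192, 272, 323 and 203 CPM in Nlrp3-/- M-MDSCs against 122, 152, 230 and 148 CPM in Nlrp3-/- G-MDSCs. The subsets overlapped in both genotypes, at -0.63 ± 0.24 and -0.71 ± 0.21 (SE; edgeR's quasi-likelihood test, adjusted p = 0.0434 and 0.0108). The remaining members were called in at most 1 comparison. Cdc6, which loads the replicative helicase, had 3.43 to 10.4 CPM in WT M-MDSCs and 7.51 to 20.3 CPM in WT G-MDSCs (log2 fold change 1.05; edgeR's quasi-likelihood test, adjusted p = 0.0485). Cdk1, the kinase of mitotic entry, had 3.13 to 7.91 CPM in Nlrp3-/- M-MDSCs and 7.65 to 18.4 CPM in Nlrp3-/- G-MDSCs (1.00; adjusted p = 0.0472). The helicase subunit Mcm3 had 23.3 to 38.0 and 10.6 to 30.5 CPM in the same groups (-0.93; adjusted p = 0.0255). Between the genotypes Cdk1 had a log2 fold change of -1.63 in M-MDSCs with an adjusted p of 0.0918, the WT values being 4.83, 47.0, 9.63 and 12.0 CPM, so that the mean rested on replicate 2. The sliding clamp Pcna, a usual marker of S phase, ran from 9.68 to 26.2 CPM over the 16 libraries, and its log2 fold changes between genotypes were -0.22 and -0.09.

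Of 137 further cell cycle genes that are not members, 16 of 111 tested were lower and 0 higher in Nlrp3-/- M-MDSCs, and 23 of 104 were lower and 2 higher in Nlrp3-/- G-MDSCs, by edgeR's quasi-likelihood test, where all tested genes gave 7.10% lower and 3.51% higher in M-MDSCs and 11.7% and 4.70% in G-MDSCs. Their medians were -0.64 and -0.78, against 0.07 and 0.03 over all tested genes. These lists were also chosen with earlier results of these data known and were measured in the same libraries, so they are no independent check. Lower in M-MDSCs and G-MDSCs were 11 of 47 and 13 of 46 tested mitosis genes, 3 of 29 and 5 of 26 tested replication genes, and 2 of 35 and 5 of 32 tested genes of G1 and cell cycle control. Smc4, a core subunit of condensin, had 159 to 298 CPM in WT against 64.5 to 116 CPM in Nlrp3-/- M-MDSCs, and 281 to 402 against 119 to 133 CPM in G-MDSCs. The groups were apart in both subsets, at log2 fold changes of -1.26 and -1.55 (edgeR's quasi-likelihood test, adjusted p = 0.00670 and 5.04e-05).

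Its partner Smc2 was called lower in Nlrp3-/- M-MDSCs at -1.89, and E2f8, a repressor of E2F targets, in Nlrp3-/- G-MDSCs at -2.76 (edgeR's quasi-likelihood test, adjusted p = 0.00710 and 0.000427). Btg1, an antiproliferative gene, was lower in both, with 298 to 482 against 127 to 162 CPM in M-MDSCs and 1101 to 2276 against 381 to 602 CPM in G-MDSCs (-1.32 and -1.57; edgeR's quasi-likelihood test, adjusted p = 0.00298 and 0.000736). Between the subsets 14 of these genes were higher and 10 lower in WT G-MDSCs of 107 tested, against 26.3% and 27.1% of all tested genes. In Nlrp3-/- G-MDSCs 11 were higher and 13 lower of 103, against 23.7% and 27.4%. The antiproliferative Btg2 and the growth arrest gene Gadd45a led in both genotypes, at 2.33 and 3.57 in WT and 2.97 and 4.08 in Nlrp3-/- mice. The securin gene Pttg1 followed in WT mice at 2.00 and Gadd45b, a relative of Gadd45a, in Nlrp3-/- mice at 2.28.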

How the data were processed

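M-MDSCs and G-MDSCs of 8 mice (4 WT, 4 Nlrp3-/-) gave 16 libraries of QuantSeq 3′ mRNA. Alignment by the authors was to mm10 with HISAT2 2.1.0, and they deposited raw, strand-specific htseq-count counts for each gene symbol. No molecular tags were used here, so limits from counts cover counting error only. Counts were analysed as deposited in R 4.3.3 with edgeR 4.0.16: filterByExpr, TMM, the quasi-likelihood test, and Benjamini-Hochberg adjustment over all tested genes of a comparison. A call needed an FDR under 0.05 and a fold change above 1.5 (0.585 on the log2 scale). Standard errors are the log2 fold change divided by the square root of F, and log2 CPM have a prior count of 2. Each comparison was fitted on its 2 groups, and the difference between subsets on all 16 libraries. Transcript GC content and length were matched for 24026 of 24421 symbols in GENCODE M21 (GRCm38, the same assembly as mm10), 650 of them by an older symbol, and for all 50 members. Promoters are from RefSeq GRCm38.p6.

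The members and the gene lists were chosen with earlier results of these data known. Values per library are given for members called between genotypes, D cyclins, CDK inhibitors and the 6 members with the greatest change in both subset comparisons, with 3 genes per comparison from the other lists by smallest p. Those of Cdk4, Cdk1 and Kif11 in G-MDSCs were added after their values were seen. The fits were tested on simulated data. Alternatives were DESeq2 1.42.0, edgeR's exact test, DESeq2 size factors, library size only, no filter, at least 10 counts in every library, all 16 libraries in one model, a replicate block, offsets for GC content and length (splines with 4 degrees of freedom each), both together, no fold minimum, each library left out, and, chosen after seeing the data, the library with the highest erythroid sum left out of each group.

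Same-numbered M-MDSC and G-MDSC libraries of a genotype carry the same spleen number in the labels and were taken to come from the same mouse, and the correlation of their deviations from the group means was 0.27 on average in WT (0.10 to 0.45) and 0.19 in Nlrp3-/- mice (0.01 to 0.40). Same-numbered WT and Nlrp3-/- libraries come from different mice.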

Additional observations from a re-analysis of the deposited data

Results flagged for a closer look

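The level of the members was tested for a library far from the other 3 of its group in 68 groups (members named with values and the mean over the members, on the log2 CPM scale), and 6 had one. Chance alone gives about 1 in 20 groups. Each was picked out because the gap between the highest or lowest library and its nearest neighbour took up nearly the whole range of the group.

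In WT M-MDSC replicate 2 the mean over the members was 5.15 log2 CPM against 3.76 to 3.89 in the other libraries of the group, with Nusap1 at 5.81 against 3.88 to 4.10 and Kif11 at 4.45 against 2.48 to 2.72. Kif23 was at 4.04 in Nlrp3-/- M-MDSC replicate 3 against 2.90 to 3.08. Among the CDK inhibitors, Cdkn1a was at 7.69 in Nlrp3-/- M-MDSC replicate 1 against 8.24 to 8.32, and Cdkn2d at 8.05 in WT G-MDSC replicate 2 against 8.81 to 8.97. These are log2 CPM values, and their causes were not tested.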

How the results depend on the processing

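In M-MDSCs the count of members lower in Nlrp3-/- mice, 8 by the reported test, was 16 by DESeq2 and 13 by edgeR's exact test. The exact test also called 1 higher, as did scaling by library size only. The shares over all genes in these runs are not given here, so their counts are not set against a background. In G-MDSCs the count lower, 8, stayed within 1.5 times of itself under every alternative run but the block with GC and length offsets, and the 1 higher member, Cdkn2d, was lost (0 higher) with the GC and length offsets, with the replicate block, with both and without the libraries of the highest erythroid sums. Between subsets of WT mice, scaling by library size only gave 4 higher and 14 lower in place of 7 and 4, a minimum of 10 counts in every library gave 4 higher and the GC and length offsets 2 lower. In Nlrp3-/- mice scaling by library size only gave 12 lower in place of 5. This scaling put the median of all genes at -0.79 in WT and -0.83 in Nlrp3-/- mice, and turned Ccnd3 in WT mice to -0.07 (edgeR's quasi-likelihood test, adjusted p = 0.754).

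Without 1 library, lower members numbered 3 to 11 and higher ones 0 to 1 in M-MDSCs, and 7 to 11 and 0 to 1 in G-MDSCs. Between subsets they numbered 5 to 12 higher and 2 to 4 lower in WT, and 5 to 7 higher and 3 to 6 lower in Nlrp3-/- mice. The highest count in WT, 12, came without WT M-MDSC replicate 2, the lowest counts of lower members there, 2, without WT G-MDSC replicate 3 or 4, and the lowest in Nlrp3-/- mice, 3, without Nlrp3-/- M-MDSC replicate 3. The difference between the subsets' genotype effects gave 0 calls in each fit run. Counts without 1 library are given without their shares over all genes.

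Same-numbered WT and Nlrp3-/- mice share only a number, and their libraries did not deviate together (mean correlation -0.17 in M-MDSCs and -0.19 in G-MDSCs, 0 of 8 libraries best with their own number in either). With the replicate block 4 members were lower in M-MDSCs and 0 higher in G-MDSCs, and with the block and the GC and length offsets 1 was lower in M-MDSCs, and 2 lower and 0 higher in G-MDSCs. The block changed no other count by over 1.5 times. Its fits have fewer residual degrees of freedom, and their shares over all genes are not given here.

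Members below a few CPM are limited by depth, since 3 counts are worth up to 1.31 CPM, and Cdk6 and Bub1 could not be tested in M-MDSCs.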
